A study of Arabidopsis thaliana with 16 samples.

Results

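The 10 genes described here encode the enzymes that make brassinosteroids, the steroid hormones of plants, in the hypocotyls (seedling stems) of Arabidopsis thaliana. They were chosen by name from the known pathway, with earlier results of these data known, and are 10 of the 33296 named genes in the count table. Their messenger RNA was measured in 16 RNA-seq libraries, 2 for each of 8 groups: 4 genotypes grown for 6 days in long days at either 22 °C or 28 °C. The genotypes were the wild type Col-0, the mutant brl3-2 with an insertion in the brassinosteroid receptor gene BRL3, the line pSUC2:BRL3;brl3-2, which carries the same mutation and a BRL3-GFP fusion under the SUC2 promoter, and the overexpressor BRL3ox, which carries a BRL3-GFP fusion under the 35S promoter. The SUC2 promoter is active mainly in phloem companion cells and the 35S promoter in most cells, and each genotype is given as a single line. The line with the SUC2 promoter is called pSUC2-BRL3 below. The replicates are described as biological, without saying whether plates or sowings were separate, so the p-values measure the spread between these libraries. A library holds RNA of all cells of a hypocotyl, so fewer cells of a type and less RNA per cell cannot be told apart.

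Brassinosteroids are built from the sterol campesterol. In the sterol part of the route, STE1 (also known as DWF7) introduces a double bond into the sterol ring, DWF5 removes another, and DWF1 reduces the side chain to give campesterol. DET2 is the steroid reductase at the entry to the hormone branch, and DWF4 is the side-chain hydroxylase often described as rate-limiting. CPD oxidises the steroid ring, ROT3 and CYP90D1 are partly redundant side-chain hydroxylases, and BR6OX1 and BR6OX2 are the oxidases of the last steps, of which BR6OX2 also makes brassinolide, the most active form. Several of these genes are known to be repressed when the hormone signals through BRI1 and its relatives BRL1 and BRL3, by the transcription factors BZR1 and BES1, so that an active pathway lowers its own synthesis. Hypocotyls of the wild type are known to elongate in warm air, a response that needs brassinosteroids.

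In the RefSeq annotation of the TAIR10.1 assembly, DWF4 (AT3G50660) lies on chromosome 3 from 18813949 to 18817405, CPD (AT5G05690) on chromosome 5 from 1702640 to 1706948, and ROT3 (AT4G36380) on chromosome 4 from 17187528 to 17192507, all on the minus strand. CYP90D1 (AT3G13730) lies on chromosome 3 from 4497893 to 4500920 and BR6OX1 (AT5G38970) on chromosome 5 from 15594674 to 15598089, both on the minus strand, and BR6OX2 (AT3G30180) on chromosome 3 from 11810726 to 11813883 on the plus strand. DET2 (AT2G38050) lies on chromosome 2 from 15921136 to 15922321, DWF1 (AT3G19820) on chromosome 3 from 6879524 to 6882315 and DWF5 (AT1G50430) on chromosome 1 from 18681932 to 18685652, all on the minus strand, and STE1 (AT3G02580) on chromosome 3 from 546739 to 548846 on the plus strand. The ends of CPD, ROT3 and DET2 overlap a gene on the opposite strand by 20, 83 and 35 bases, and DWF1 overlaps a neighbour on its own strand by 20 bases. The strand setting of the counting is not given in the sources used here, so reads in those overlaps cannot be assigned with certainty. BR6OX1 and BR6OX2 share no exact run longer than 32 bases.

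BZR1 is known to bind the brassinosteroid response element, here searched as CGTGTG and CGTGCG on both strands of the 1000 bases before each annotated gene start. At least 1 of these words occurred upstream of 4 of the 10 genes and of 21.1% of 27443 genes in the annotation. CGTGCG occurred upstream of 3 of the 10 and of 5.09% of all, and CGTGTG upstream of 1 and of 17.2%. The G-box CACGTG, a word that PIF proteins are known to bind, occurred upstream of STE1 and DWF5 and of 14.8% of all genes. The 4 stretches of 80 bases that hold a match are shown because these genes carry the word that BZR1 is known to bind. Each is read 5′ to 3′ on the strand of its gene from TAIR10.1 by RefSeq coordinates, with the matched word in capitals on whichever strand it lies; in STE1 the capitals also take in the overlapping G-box.
DWF4, chr3:18817821-18817900, minus strand: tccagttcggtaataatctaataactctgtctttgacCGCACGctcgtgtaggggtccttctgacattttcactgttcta
ROT3, chr4:17192878-17192957, minus strand: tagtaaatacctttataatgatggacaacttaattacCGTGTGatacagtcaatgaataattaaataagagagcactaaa
CYP90D1, chr3:4501679-4501758, minus strand: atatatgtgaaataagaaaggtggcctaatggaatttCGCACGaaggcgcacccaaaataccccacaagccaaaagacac
STE1, chr3:546280-546359, plus strand: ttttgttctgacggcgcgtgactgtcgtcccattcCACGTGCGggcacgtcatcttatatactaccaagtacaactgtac
The matches lay 458 to 453 bases before the start of DWF4, 413 to 408 before ROT3, 801 to 796 before CYP90D1 and 422 to 417 before STE1. A match describes these letters only, and the files hold no binding data.

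Libraries held between 19014140 and 22791633 counts at 22 °C and between 23022123 and 26564829 at 28 °C. Levels below are CPM, counts scaled to the size of their library, after TMM scaling, and tests are edgeR quasi-likelihood tests over 20505 genes in 1 fit of all libraries. A gene is said to have risen or fallen where its Benjamini-Hochberg adjusted p was below 0.05. Leaving out 1 library leaves its group with 1, so a call can be lost in such a fit while the change itself hardly moves. The targeted gene BRL3 averaged 15 CPM in Col-0 at 22 °C and 25.8 at 28 °C, 0.661 and 0.885 in the mutant, 52.4 and 174 in the phloem line, and 766 and 2332 in the overexpressor. The TMM factors were 0.736 to 0.897 at 22 °C and 1.16 to 1.27 at 28 °C, and scaling by library size alone would shift the median warmth response of all genes to between 0.552 and 0.659 (log2). Responses to warmth are therefore relative to that shift. The 2 replicates of BRL3ox at 22 °C differed at least 2-fold in 4523 genes, against 1576 in pSUC2-BRL3 at 28 °C and 623 to 1158 in the other groups. Values of the 10 genes that rest on BRL3ox at 22 °C are therefore also given without its replicate 2 where a direction or a call changes or the value moves by over 1.5 times. All 8 groups share the spread of a gene in the fit, so SE and adjusted p in the other comparisons depend on that library too. The summed level of the green tissue markers RBCS1A and CAB1 was 60210 to 85210 CPM at 22 °C and 14800 to 25190 at 28 °C, and its part in the warmth responses was not tested. The root markers PHT1;4, PHT1;1, COBL9 and EXP7 summed to 4.97 to 28.3 CPM at 22 °C and 7.16 to 30.3 at 28 °C, with PHT1;4 and PHT1;1 present and the root hair genes COBL9 and EXP7 below 1 CPM on average in every group. The shoot apex markers STM, KNAT1 and CLV3 summed to 22.1 to 49.0 CPM at 22 °C and 61.3 to 85.0 at 28 °C, with CLV3 below 1 CPM on average in every group. KNAT1, which averaged 41.2 CPM in Col-0 at 22 °C and 72.4 at 28 °C, rose with warmth in all 4 genotypes (log2 0.81 to 1.07, adjusted p 0.00844 to 0.0334). The epidermis markers ML1 and PDF1 summed to 269.5 to 404 CPM at 22 °C and 191 to 356 at 28 °C. In BRL3ox their sum was 269.5 to 302 CPM at 22 °C and 191 to 192 at 28 °C. In Col-0 it was 351 to 356 CPM at 22 °C and 316.5 to 333 at 28 °C. The part of these markers in the warmth responses and in the differences between lines was not tested.

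Per kilobase of exon, the sterol enzyme DWF1 was the most abundant of the route in all 8 groups, and CYP90D1 or BR6OX1 the least abundant. The distance between them was widest in BRL3ox at 28 °C, with 117 CPM per kilobase for DWF1 and 0.12 for CYP90D1. In Col-0 at 22 °C the levels per kilobase were 131 CPM for DWF1, 47.8 for CPD, 30.2 for DWF5, 23.8 for STE1, 12.1 for BR6OX2, 8.08 for ROT3, 8.03 for DET2, 3.91 for DWF4, 1.28 for CYP90D1 and 1.18 for BR6OX1. CPD came next after DWF1, and DWF5 after it, in every group. At 28 °C BR6OX2 stood above STE1, ROT3, DET2 and DWF4 in Col-0, at 21.7 CPM per kilobase, and below all 4 of them in BRL3ox, at 2.13. DET2 stood below STE1 and ROT3 in Col-0 at 28 °C, at 11.7 CPM per kilobase, and above both in BRL3ox, at 18.2. Of the BR6OX pair per kilobase, BR6OX2 made up between 67.4% and 91.5% in any library. Of the ROT3 and CYP90D1 pair, ROT3 made up between 80.0% and 99.5%.

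**Figure D1:**
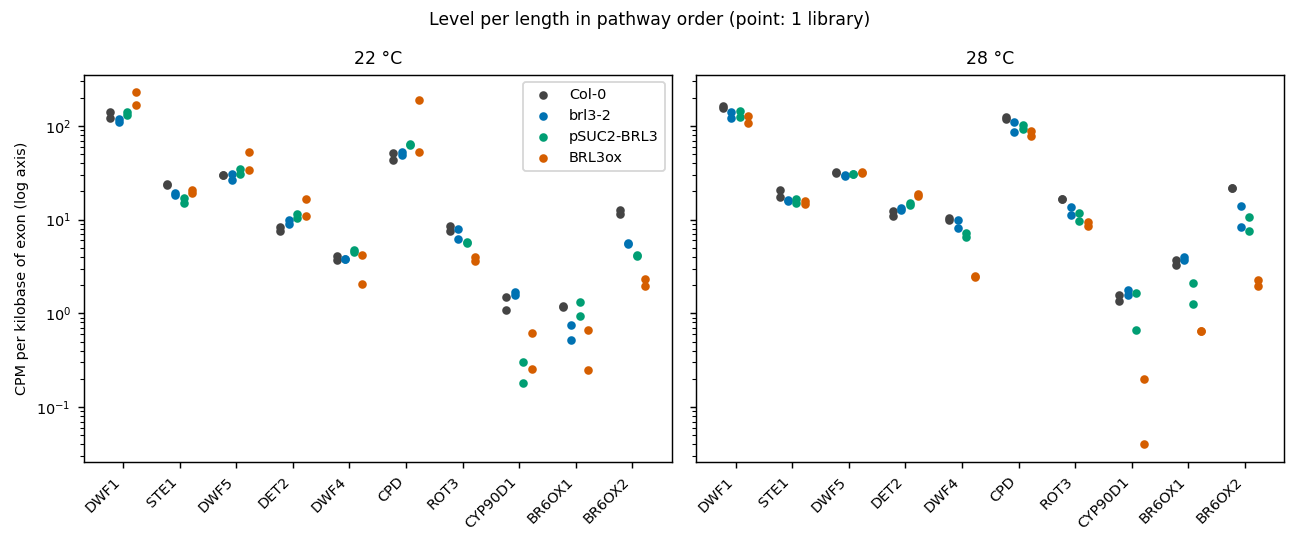
Level of each gene in CPM per kilobase of exon (log axis) at 22 °C and 28 °C. The sterol enzymes stand first and the hormone branch follows from DET2 on. DWF1 is drawn first, though it acts after STE1 and DWF5 in the route. Each point is 1 library and the colours are the genotypes. DWF1 and CPD lie at the top in every group, and BR6OX2 in BRL3ox lies at about 2 CPM per kilobase at both temperatures.

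Growth at 28 °C raised DWF4, CPD, ROT3, BR6OX1 and BR6OX2 of the later steps in Col-0, and DET2 at their entry. Of the 10 genes, 6 rose and 1 fell, against 45% of all 20505 genes called in either direction, 21.7% higher and 23.3% lower, and the median log2 change was 0.69 over the 10 and 0.02 over all genes. With scaling by library size alone the split in Col-0 was 8 higher and 0 lower, where the median log2 change over all genes was 0.55. In brl3-2, 4 rose and 0 fell (49% of all genes called, 25.8% higher and 23.3% lower), with a median of 0.63 over the 10. In pSUC2-BRL3, 3 rose and 0 fell (39.1% of all genes called, 19.6% higher and 19.5% lower), with a median of 0.58. In BRL3ox 1 rose and 2 fell (37.6% of all genes called, 18.3% higher and 19.3% lower), with a median of -0.34. That median rests in part on replicate 2 of BRL3ox at 22 °C. Without it the change turned from -0.53 to 0.66 for CPD, -0.32 to 0.26 for DWF4 and -0.01 to 0.11 for BR6OX2. That of BR6OX1 turned from 0.50 to -0.012, and the median without that library is not given. Under library size alone 4 rose and 0 fell in BRL3ox, where the median over all genes was 0.66. The shares of all genes called in such other fits are not given, here or below, so their counts are not set against all genes. When a library of each of the pairs that stand apart was left out (BRL3ox at 22 °C, replicate 2, and pSUC2-BRL3 at 28 °C, replicate 1), the counts for Col-0, brl3-2, pSUC2-BRL3 and BRL3ox were 6 higher and 1 lower, 6 and 0, 7 and 0, and 3 and 1.

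**Figure D2:**
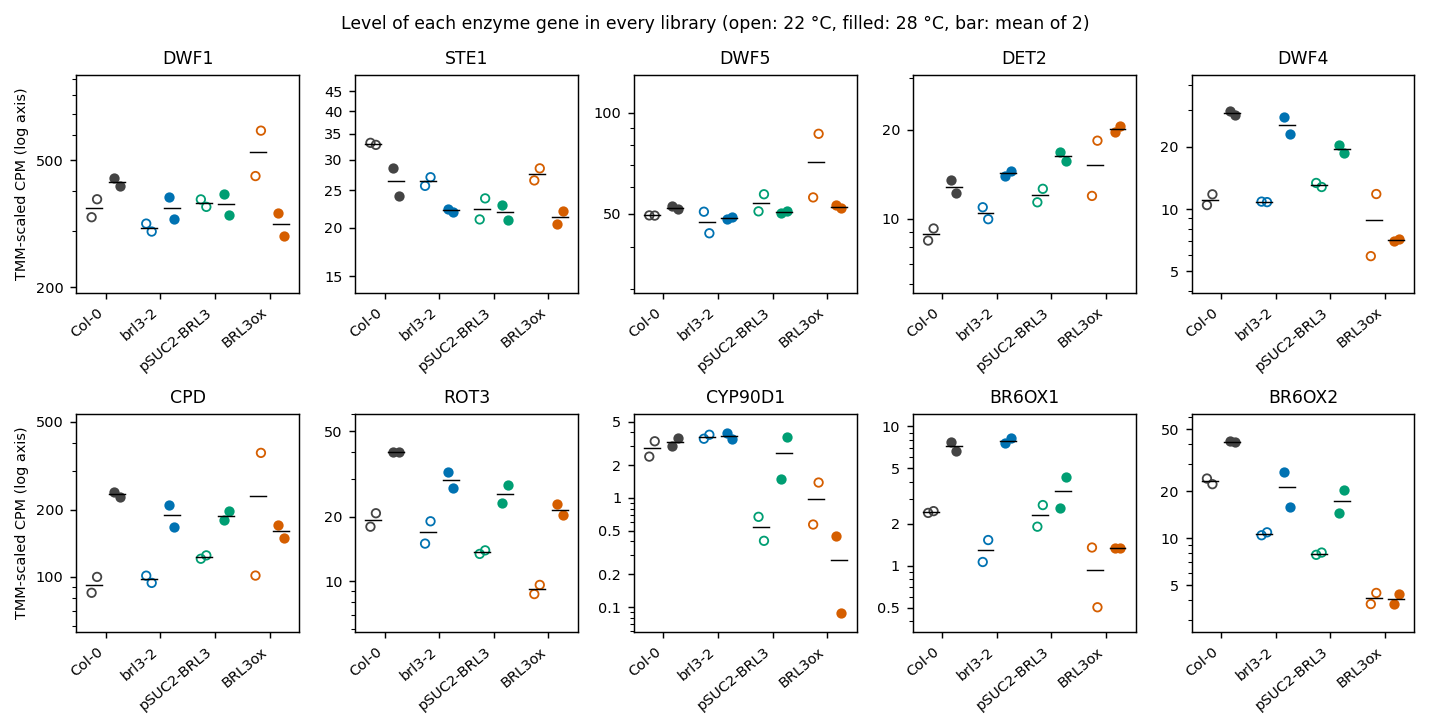
Level of each of the 10 genes in TMM-scaled CPM (log axis) in every library, at 22 °C (open) and 28 °C (filled), with the mean of the 2 libraries of a group as a bar. ROT3 is higher at 28 °C in all 4 genotypes, and BR6OX2 is higher at 28 °C in all but BRL3ox, where its 4 libraries lie between 3.77 and 4.46 CPM.

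DWF4, the rate-limiting hydroxylase, stood at 10.4 and 11.8 CPM in the Col-0 replicates at 22 °C and at 29.8 and 28.4 at 28 °C. In brl3-2 it stood at 10.9 and 10.8 CPM at 22 °C and at 28.0 and 23.1 at 28 °C. In pSUC2-BRL3 the values were 13.4 and 12.8 CPM at 22 °C and 20.4 and 18.7 at 28 °C, and in BRL3ox they were 5.91 and 11.8 at 22 °C and 6.96 and 7.16 at 28 °C. The libraries at 28 °C were thus above those at 22 °C in the first 3 genotypes, and the BRL3ox libraries overlapped. DWF4 rose 2.62-fold in Col-0 (log2 1.39, SE 0.24, adjusted p 0.000861) and 2.36-fold in brl3-2 (log2 1.24, SE 0.24, adjusted p 0.00131). Both calls held when any 1 of their 4 libraries was left out. The change in pSUC2-BRL3 was 0.58 (SE 0.23, adjusted p 0.0683) and that in BRL3ox was -0.32 (SE 0.24, adjusted p 0.317), neither of them called. Without the 2 libraries that stand apart the change in pSUC2-BRL3 was 0.52. With replicate 2 of that line at 28 °C left out instead of its replicate 1, the change was 0.65. Without replicate 2 of BRL3ox at 22 °C, the change in BRL3ox was 0.26 (adjusted p 0.198).

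CPD, which oxidises the steroid ring, stood at 84.5 and 99.7 CPM in Col-0 at 22 °C and at 242 and 230 at 28 °C. It stood at 101 and 93.7 CPM in brl3-2 at 22 °C and at 211 and 167 at 28 °C. The values were 120 and 125 CPM in pSUC2-BRL3 at 22 °C and 180 and 197 at 28 °C, and 101 and 362 in BRL3ox at 22 °C and 170 and 150 at 28 °C. The BRL3ox libraries at 22 °C were 3.58-fold apart, and replicate 2 was the highest of all 16. CPD rose 2.56-fold in Col-0 (log2 1.36, SE 0.41, adjusted p 0.0183). That call was lost when any 1 of the 4 Col-0 libraries was left out (log2 1.24 to 1.49, adjusted p 0.0556 to 0.107). The change was 0.96 in brl3-2 (SE 0.40, adjusted p 0.0677), 0.62 in pSUC2-BRL3 (SE 0.40, adjusted p 0.24) and -0.53 in BRL3ox (SE 0.40, adjusted p 0.314), none of them called. The spread behind these SE values includes the BRL3ox libraries at 22 °C. DESeq2 called the change in brl3-2 (0.94, adjusted p 0.0454). Without the 2 libraries that stand apart, the change was 0.96 in brl3-2 (SE 0.13) and 0.68 in pSUC2-BRL3. Without replicate 2 of BRL3ox at 22 °C the change in BRL3ox turned to 0.66 (adjusted p 0.00721). In that replicate the clock genes LHY and PRR5, chosen after their values were seen, stood at 126 and 10.7 CPM, against 406 and 0.363 in its partner, and their part in the CPD difference was not tested.

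ROT3, a side-chain hydroxylase, was the member that rose in all 4 genotypes. Its values at 22 °C were 18.0 and 20.8 CPM in Col-0, 15 and 19.1 in the mutant, 13.4 and 13.9 in pSUC2-BRL3 and, in BRL3ox, 8.72 and 9.62. At 28 °C they were 40.3 in both Col-0 libraries, 32.5 and 27.1 in the mutant, 23.1 and 28.2 in pSUC2-BRL3 and, in BRL3ox, 22.9 and 20.3. No genotype had a library at 28 °C within its range at 22 °C. The rise was 2.08-fold in Col-0 (log2 1.06, SE 0.16, adjusted p 0.000353), 1.75-fold in brl3-2 (log2 0.81, SE 0.16, adjusted p 0.0014), 1.88-fold in pSUC2-BRL3 (log2 0.91, SE 0.16, adjusted p 0.0012) and 2.36-fold in BRL3ox (log2 1.24, SE 0.16, adjusted p 0.000236). All 4 calls held when any 1 library was left out.

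CYP90D1, the hydroxylase that acts beside ROT3, was among the least abundant members, with 3 to 121 reads per library. At 22 °C it stood at 2.39 and 3.30 CPM in Col-0, 3.48 and 3.79 in the mutant, 0.671 and 0.405 in pSUC2-BRL3 and, in BRL3ox, 0.571 and 1.38. At 28 °C it stood at 2.99 and 3.51 CPM in Col-0, 3.92 and 3.49 in the mutant, 1.48 and 3.65 in pSUC2-BRL3 and, in BRL3ox, 0.446 and 0.0892. The Col-0 and brl3-2 libraries overlapped between the temperatures, those of pSUC2-BRL3 were higher at 28 °C and those of BRL3ox lower. The change was 0.19 in Col-0 (SE 0.50, adjusted p 0.775) and 0.03 in brl3-2 (SE 0.49, adjusted p 0.967), neither called. CYP90D1 rose 4.72-fold in pSUC2-BRL3 (log2 2.24, SE 0.61, adjusted p 0.0132). Leaving out replicate 2 of that line, at 22 °C or at 28 °C, ended that call, where the change ranged down to 1.45 and the adjusted p up to 0.102. The change in BRL3ox was -1.87 (SE 0.69, adjusted p 0.0521) and was not called. It ranged from -3.35 to -1.09 when 1 library was left out (adjusted p 0.0218 to 0.307), called without replicate 1 at either temperature, and was -1.13 without replicate 2 at 22 °C. DESeq2 called it (adjusted p 0.0135), as did edgeR with DESeq2 size factors (0.0495) or without the low-count filter (0.0488).

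BR6OX2, which makes the most active form, stood at 24.1 and 22.2 CPM in Col-0 at 22 °C and at 41.8 and 41.2 at 28 °C. In brl3-2 it stood at 10.4 and 10.9 CPM at 22 °C and at 26.6 and 15.8 at 28 °C. In pSUC2-BRL3 it stood at 7.83 and 8.10 CPM at 22 °C and at 14.6 and 20.3 at 28 °C. In BRL3ox it stood at 3.79 and 4.46 CPM at 22 °C and at 3.77 and 4.37 at 28 °C. Every library at 28 °C was above those at 22 °C in the first 3 genotypes, and the 4 BRL3ox libraries were the lowest of all 16. BR6OX2 rose 1.79-fold in Col-0 (log2 0.84, SE 0.22, adjusted p 0.00927), 1.98-fold in brl3-2 (log2 0.99, SE 0.22, adjusted p 0.0038) and 2.18-fold in pSUC2-BRL3 (log2 1.13, SE 0.23, adjusted p 0.00289). The Col-0 call was lost without replicate 2 at 22 °C (adjusted p 0.0593). The change in BRL3ox was -0.01 (SE 0.25, adjusted p 0.97), and 0.11 (adjusted p 0.808) without replicate 2 at 22 °C.

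BR6OX1, the other oxidase of the last steps, had 8 to 234 reads per library. At 22 °C it stood at 2.39 and 2.46 CPM in Col-0, 1.06 and 1.53 in the mutant, 1.90 and 2.72 in pSUC2-BRL3 and, in BRL3ox, 1.35 and 0.503. At 28 °C it stood at 7.65 and 6.66 CPM in Col-0, 7.59 and 8.17 in the mutant, 2.57 and 4.32 in pSUC2-BRL3 and 1.34 in both BRL3ox libraries. The 4 highest libraries were those of Col-0 and brl3-2 at 28 °C. BR6OX1 rose 2.95-fold in Col-0 (log2 1.56, SE 0.35, adjusted p 0.00414) and 6.06-fold in brl3-2 (log2 2.60, SE 0.37, adjusted p 0.000209), and both calls held when any 1 library was left out. The change was 0.58 in pSUC2-BRL3 (SE 0.35, adjusted p 0.213) and 0.50 in BRL3ox (SE 0.40, adjusted p 0.355), the last at -0.012 (adjusted p 0.983) without replicate 2 at 22 °C.

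The sterol enzymes and the entry to the hormone branch followed. DET2, the reductase at the entry to the hormone branch, stood at 8.42 and 9.25 CPM in Col-0 at 22 °C and at 13.5 and 12.2 at 28 °C, a 1.45-fold rise (log2 0.54, SE 0.18, adjusted p 0.0293). The call was lost when any 1 of the 4 Col-0 libraries was left out (log2 0.47 to 0.62, adjusted p 0.0606 to 0.149). In the other genotypes DET2 was higher at 28 °C in both libraries, by 0.45, 0.44 and 0.41 (log2, in brl3-2, pSUC2-BRL3 and BRL3ox), with adjusted p of 0.055, 0.0671 and 0.0838, and was not called. The SE in brl3-2 was 0.18. Without the 2 libraries that stand apart, the change in brl3-2 was again 0.45, with an SE of 0.11. Without replicate 2 of BRL3ox at 22 °C the change in BRL3ox was 0.75 and was called (adjusted p 0.00119). DWF1 stood at 446 and 620 CPM in BRL3ox at 22 °C and at 343 and 289 at 28 °C, a fall by 0.76 (log2, SE 0.17, adjusted p 0.00556). That call was lost without replicate 2 at 28 °C (adjusted p 0.0589), and the fall was 0.50 (adjusted p 0.0224) without replicate 2 at 22 °C. With scaling by library size alone the change of DWF1 in BRL3ox was -0.07 (adjusted p 0.699). In Col-0 DWF1 changed by 0.27 (SE 0.17, adjusted p 0.208). STE1 stood at 33.1 and 32.7 CPM in Col-0 at 22 °C and at 28.6 and 24.2 at 28 °C, a change of -0.32 (SE 0.12, adjusted p 0.0445), and it changed by -0.37 in BRL3ox (SE 0.12, adjusted p 0.0296). The direction of both STE1 changes turned with scaling by library size alone, to 0.21 in Col-0 and 0.30 in BRL3ox. The STE1 call in Col-0 was lost without either library at 22 °C or replicate 2 at 28 °C (adjusted p up to 0.309), and with the replicate number as a block (adjusted p 0.0612). The call in BRL3ox was lost without replicate 2 at 22 °C (-0.31) or either library at 28 °C (adjusted p up to 0.168). DWF5 lay between 43.8 and 56.0 CPM in every library but replicate 2 of BRL3ox at 22 °C, where it was at 86.5, and pSUC2-BRL3 replicate 2 at 22 °C, at 57.2. Its warmth change in BRL3ox was -0.44 (adjusted p 0.0586), and -0.090 (adjusted p 0.523) without that BRL3ox library.

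**Figure D3:**
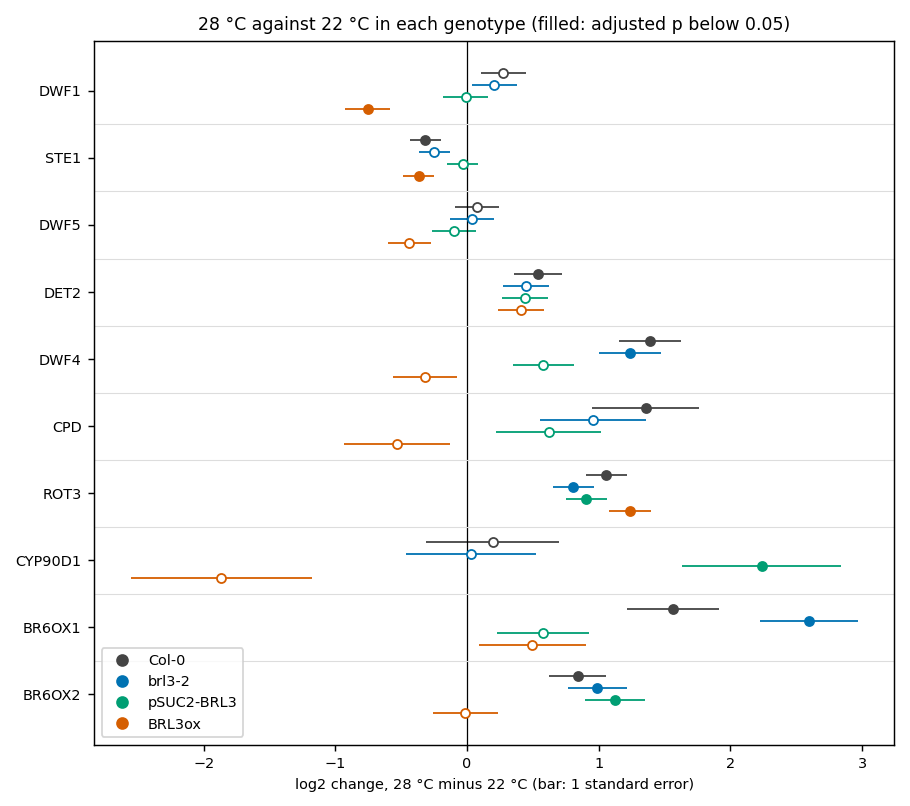
Log2 change of each gene from 22 °C to 28 °C in each genotype, with 1 standard error as a bar; filled points have an adjusted p below 0.05. ROT3 is filled in all 4 genotypes, DWF4 and BR6OX1 in Col-0 and brl3-2, and BR6OX2 in all but BRL3ox, where its change is -0.01.

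The lines were next compared with Col-0 at each temperature. These comparisons share the Col-0 libraries, so they are not independent of each other. BR6OX2 was lower in all 3 lines at both temperatures. Of the 10 genes at 22 °C, brl3-2 had 0 higher and 1 lower (2.24% of all genes called, 0.629% higher and 1.61% lower), pSUC2-BRL3 had 0 higher and 3 lower (10.6% of all genes called, 5.05% higher and 5.56% lower), and BRL3ox had 4 higher and 3 lower (30.2% of all genes called, 15.6% higher and 14.7% lower). At 28 °C, brl3-2 had 0 higher and 1 lower (3.62% of all genes called, 2.19% higher and 1.43% lower), pSUC2-BRL3 had 0 higher and 1 lower (0.858% of all genes called, 0.229% higher and 0.629% lower), and BRL3ox had 0 higher and 5 lower (2.07% of all genes called, 0.829% higher and 1.24% lower). Counts from the fit without the same 2 libraries that stand apart are given at the end, without the shares of all genes.

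BR6OX2 in the 4 Col-0 libraries, at 22.2 to 41.8 CPM, was above all libraries of the 3 lines at the same temperature. In BRL3ox it was 5.62-fold lower at 22 °C (log2 -2.49, SE 0.24, adjusted p 0.000648) and 10.2-fold lower at 28 °C (log2 -3.35, SE 0.24, adjusted p 0.000118). Both calls held when any 1 library was left out. In pSUC2-BRL3 it was 2.91-fold lower at 22 °C (log2 -1.54, SE 0.23, adjusted p 0.00499) and 2.38-fold lower at 28 °C (log2 -1.25, SE 0.22, adjusted p 0.0268). In the mutant brl3-2 it was 2.17-fold lower at 22 °C (log2 -1.12, SE 0.23, adjusted p 0.0357) and 1.96-fold lower at 28 °C (log2 -0.97, SE 0.22, adjusted p 0.0348). The mutant and the overexpressor thus both lay below Col-0 for this gene. The summed level of 4 clock genes, chosen after their values were seen, was also higher in Col-0. At 22 °C it was 1095 to 1269 CPM in Col-0 and 674 to 701 in brl3-2. The range was 572 to 589 in pSUC2-BRL3 and 335.5 to 683 in BRL3ox. At 28 °C it was 351 to 410.5, 172 to 208, 144 to 195 and 215 to 219 in this order. Its part in the differences from Col-0 was not tested. The BR6OX2 calls in pSUC2-BRL3 and brl3-2 were lost in some fits. That in brl3-2 at 22 °C was lost when any 1 of the 4 libraries was left out (log2 -1.17 to -1.06, adjusted p 0.113 to 0.215), with the replicate number as a block (adjusted p 0.0566) and with scaling by library size alone (adjusted p 0.0515). That in brl3-2 at 28 °C was lost without either Col-0 library or replicate 2 of brl3-2 (log2 -1.39 to -0.66 over the 4 fits, adjusted p up to 0.298). That in pSUC2-BRL3 was lost at 22 °C without replicate 1 of Col-0 or replicate 2 of the line (adjusted p up to 0.0648), and at 28 °C without either Col-0 library or replicate 1 of the line (adjusted p up to 0.192).

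In BRL3ox at 28 °C 4 other late enzymes were lower too. DWF4, at 6.96 and 7.16 CPM against 29.8 and 28.4 in Col-0, was 4.12-fold lower (log2 -2.04, SE 0.24, adjusted p 0.00264), a call lost without replicate 2 of BRL3ox (adjusted p 0.0521). BR6OX1, at 1.34 CPM in both libraries against 7.65 and 6.66, was 5.33-fold lower (log2 -2.42, SE 0.35, adjusted p 0.00811). CYP90D1, with 13 and 3 reads in BRL3ox, was 12.3-fold lower (log2 -3.62, SE 0.62, adjusted p 0.0154). ROT3, at 22.9 and 20.3 CPM against 40.3 in both Col-0 libraries, was 1.86-fold lower (log2 -0.90, SE 0.15, adjusted p 0.0154). No library of BRL3ox reached the Col-0 range for these 4 genes. The ROT3 call was lost when any 1 of the 4 libraries was left out (log2 -0.99 to -0.82, adjusted p 0.0955 to 0.167). Those of BR6OX1 (adjusted p up to 0.096) and CYP90D1 (log2 -5.11 to -2.85, adjusted p up to 0.141) were each lost in 3 of the 4 fits: BR6OX1 without replicate 1 of Col-0 or either BRL3ox library, and CYP90D1 without either Col-0 library or replicate 2 of BRL3ox. CPD differed by -0.56 (SE 0.40, adjusted p 0.522), and DET2 differed upward by 0.65 (SE 0.17, adjusted p 0.0834). DESeq2 called DET2 (0.63, adjusted p 0.0272). Without the 2 libraries that stand apart, the differences were -0.56 (SE 0.13) for CPD and 0.64 (SE 0.10) for DET2.

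At 22 °C, ROT3 was 2.11-fold lower in BRL3ox than in Col-0 (log2 -1.08, SE 0.16, adjusted p 0.00284), a call that held when any 1 library was left out. BR6OX1 was 2.55-fold lower (log2 -1.35, SE 0.41, adjusted p 0.0289), lost without either Col-0 library or replicate 2 of BRL3ox (log2 -2.25 to -0.84, adjusted p up to 0.175). The 4 genes that were higher were CPD (log2 1.33, SE 0.41, adjusted p 0.0308), DET2 (0.77, SE 0.18, adjusted p 0.0115), DWF1 (0.59, SE 0.17, adjusted p 0.0254) and DWF5 (0.53, SE 0.17, adjusted p 0.0362). Replicate 2 of BRL3ox was the higher of the pair for all 4 genes, and none of these calls held without it: the differences were then 0.14, 0.44, 0.34 and 0.18, with adjusted p of 0.612, 0.0568, 0.18 and 0.295. The calls of CPD, DWF1 and DWF5 were also lost without either Col-0 library, and that of DET2 without replicate 1 of Col-0. DWF4 differed by -0.33 (SE 0.24, adjusted p 0.311), and without replicate 2 of BRL3ox by -0.90 (adjusted p 0.00671). CYP90D1 differed by -1.56 (SE 0.57, adjusted p 0.0591), and by -2.30 (adjusted p 0.0602) without replicate 2 of BRL3ox. It ranged from -2.30 to -1.03 over the 4 fits that left out 1 library and was called in 0 of them. DESeq2 called it (adjusted p 0.0273), as did the fit without both libraries that stand apart (-2.30, adjusted p 0.0232) and that with library size scaling (adjusted p 0.0494).

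In pSUC2-BRL3 at 22 °C, CYP90D1 was 5.22-fold lower than in Col-0 (log2 -2.39, SE 0.62, adjusted p 0.0344), from 7 to 67 reads per library over all groups at that temperature. STE1, at 21.0 and 23.8 CPM against 33.1 and 32.7, was 1.47-fold lower (log2 -0.55, SE 0.12, adjusted p 0.0171). Both calls were lost when any 1 of the 4 libraries was left out, with an adjusted p of 0.11 to 0.206 for CYP90D1 and 0.0636 to 0.119 for STE1. ROT3 differed by -0.50 at 22 °C (adjusted p 0.0647) and by -0.65 at 28 °C (adjusted p 0.0852), and was not called.

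**Figure D4:**
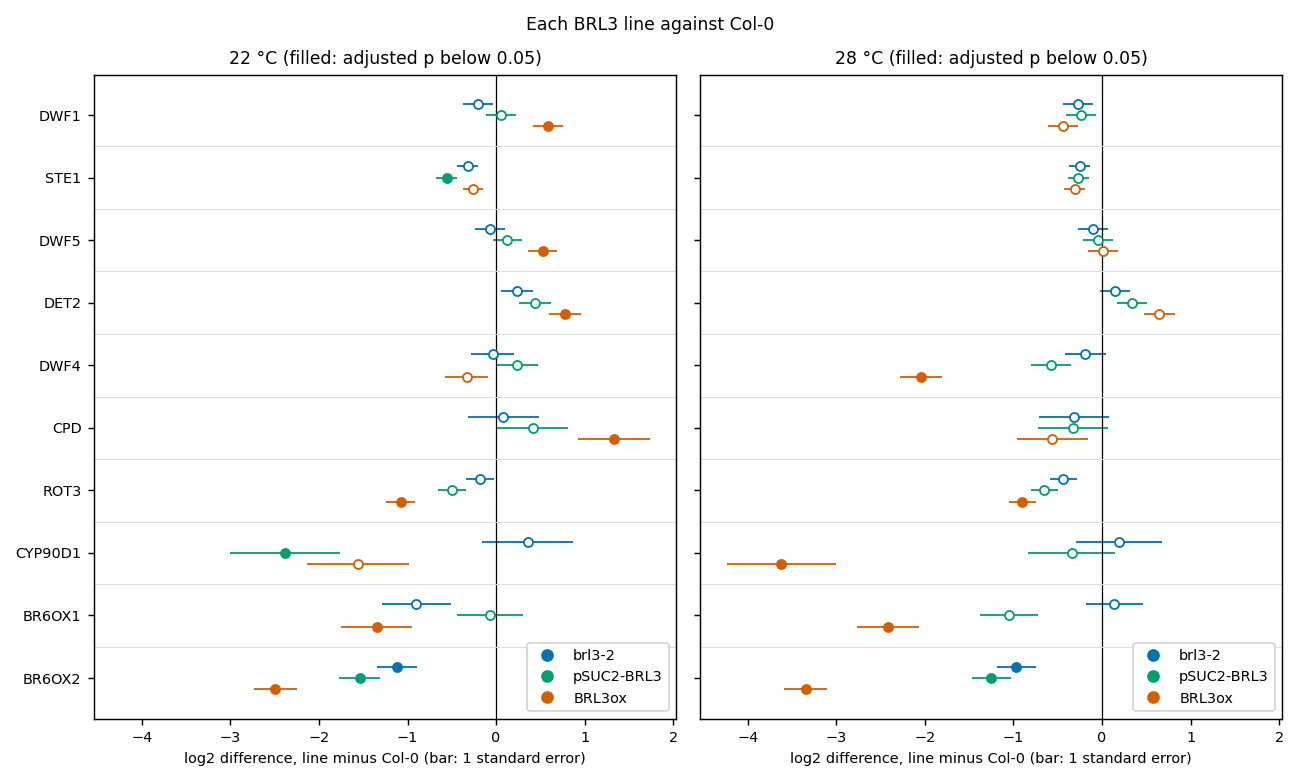
Log2 difference of each line from Col-0 at 22 °C (left) and 28 °C (right), with 1 standard error as a bar; filled points have an adjusted p below 0.05. BR6OX2 is filled below 0 in all 3 lines at both temperatures, at -3.35 in BRL3ox at 28 °C, and the 4 filled points above 0 are all BRL3ox at 22 °C.

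BRL3 itself was higher in pSUC2-BRL3 than in Col-0, by 1.80 at 22 °C and 2.76 at 28 °C (log2). This line, with BRL3 under the phloem promoter, was compared directly with the mutant. None of the 10 genes was called at 22 °C (0.307% of all genes called, 0.151% higher and 0.156% lower), where 1 had an unadjusted p below 0.05 and DESeq2 called 1. None was called at 28 °C either (1.61% of all genes called, 0.332% higher and 1.28% lower), again with 1 at an unadjusted p below 0.05 and 1 called by DESeq2. CYP90D1 at 22 °C differed by -2.74 (SE 0.61, adjusted p 0.0745) and BR6OX1 at 28 °C by -1.19 (SE 0.33, adjusted p 0.101). BR6OX2 differed by -0.42 at 22 °C (SE 0.23, adjusted p 0.349) and by -0.28 at 28 °C (SE 0.22, adjusted p 0.558).

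Whether the lines responded to warmth unlike Col-0 was tested as a difference of differences. None of the 10 genes was called for brl3-2 (0.878% of all genes called, 0.517% higher and 0.361% lower; 0 with an unadjusted p below 0.05, 0 with DESeq2). None was called for pSUC2-BRL3 (1.95% of all genes called, 0.853% higher and 1.1% lower; 2 with an unadjusted p below 0.05, 0 with DESeq2), where DWF4 differed by -0.81 (SE 0.33, adjusted p 0.213) and CYP90D1 by 2.04 (SE 0.79, adjusted p 0.193). For BRL3ox 0 were higher and 2 lower (2.58% of all genes called, 1.24% higher and 1.34% lower). The response of DWF4 was lower by 1.71 than in Col-0 on the log2 scale (difference -1.71, SE 0.34, adjusted p 0.0301), and that of DWF1 differed by -1.03 (SE 0.24, adjusted p 0.0487). DWF4 was called in 2 of the 8 fits that left out 1 library, without either BRL3ox library at 22 °C, and ranged from -2.14 to -1.14 (adjusted p up to 0.14), with -1.14 in the fit without replicate 2. DWF1 was called in 1 of the 8, without replicate 1 of BRL3ox at 22 °C, and ranged from -1.25 to -0.78 (adjusted p up to 0.195), with -0.78 in the fit without replicate 2. With the replicate number as a block the DWF1 call was lost (adjusted p 0.0712). CPD differed by -1.89 (SE 0.57, adjusted p 0.0913) and was called with DESeq2 (-1.91, adjusted p 0.0186). Over the 8 fits that left out 1 library it ranged from -2.54 to -0.70 (adjusted p 3.67e-05 to 0.274), called in the 1 without replicate 1 of BRL3ox at 22 °C. The -0.70 was the value without replicate 2 of BRL3ox at 22 °C (adjusted p 0.0852).

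Of the genes that make sterols before this route, 16 were tested. Warmth raised 3 and lowered 1 in Col-0, raised 4 and lowered 1 in brl3-2, raised 2 and lowered 1 in pSUC2-BRL3, and raised 1 and lowered 7 in BRL3ox, with median log2 changes of 0.19, 0.14, 0.03 and -0.32. Of all genes, 21.7% rose and 23.3% fell in Col-0, 25.8% rose and 23.3% fell in the mutant, 19.6% rose and 19.5% fell in pSUC2-BRL3, and 18.3% rose and 19.3% fell in BRL3ox. With scaling by library size alone the counts were 13 higher and 0 lower in Col-0 and 12 and 0 in the mutant. They were 10 and 0 in pSUC2-BRL3 and, for BRL3ox, 7 and 0. The median log2 change over all genes was then 0.552, 0.561, 0.612 and 0.659 in this order. These counts are not set against the share of all genes in that fit, so nothing about the list is read from them. The BRL3ox count was the same without its replicate 2 at 22 °C, and was 1 higher and 4 lower without replicate 1 and 0 and 3 without replicate 2 at 28 °C. In Col-0 it was 1 and 1 without replicate 1 at 22 °C and 1 and 0 without replicate 2 at 28 °C, and in pSUC2-BRL3 1 and 0 without replicate 2 at 22 °C. 3BETAHSD/D2, a sterol dehydrogenase, rose in all 4 genotypes, by 0.73 in Col-0 (adjusted p 0.00212), 0.69 in brl3-2 (0.00241), 0.59 in pSUC2-BRL3 (0.00851) and 0.60 in BRL3ox (0.00802). The last pair of calls were lost without replicate 2 of pSUC2-BRL3 at 22 °C (adjusted p 0.0562) and without replicate 2 of BRL3ox at 28 °C (0.0657). SMO2-1, a sterol methyl oxidase, rose by 1.00 in brl3-2 (adjusted p 0.00186) and by 1.49 in pSUC2-BRL3 (0.00036). Its response in pSUC2-BRL3 was above that of Col-0 by 1.40 (SE 0.29, adjusted p 0.0373), a call lost with the replicate number as a block (0.0571) and in 6 of the 8 fits that left out 1 library (1.03 to 1.66, adjusted p up to 0.174), held without replicate 2 of Col-0 at 22 °C or replicate 2 of pSUC2-BRL3 at 28 °C. CAS1, the cycloartenol synthase at the start of plant sterol synthesis, rose by 0.67 in brl3-2 (adjusted p 0.00182) and by 0.39 in Col-0 (0.0337), the latter lost without replicate 1 at 22 °C or either library at 28 °C (adjusted p up to 0.249). SMT2, a sterol methyltransferase that leads away from campesterol toward sitosterol, fell by 0.98 in BRL3ox (adjusted p 0.000577) and by 0.49 in pSUC2-BRL3 (0.0214). With library size scaling these changes were -0.31 in BRL3ox (adjusted p 0.0694) and 0.10 in pSUC2-BRL3, and the pSUC2-BRL3 call was also lost without replicate 2 at either temperature (adjusted p up to 0.163). The responses of SMT2 and of its relative SMT3, named after its values were seen, were lower in BRL3ox than in Col-0, by -1.08 (adjusted p 0.0279) and -2.15 (adjusted p 0.0155). SMT2 was called in 3 and SMT3 in 4 of the 8 fits that left out 1 library (adjusted p up to 0.134 and 0.0913), the losses coming without replicate 1 of Col-0 at 22 °C, either Col-0 library at 28 °C or replicate 2 of BRL3ox at 28 °C, and for SMT2 also replicate 1 of BRL3ox at 28 °C. In BRL3ox against Col-0 at 22 °C, 6 of the 16 were higher and 0 lower, against 15.6% of all genes higher and 14.7% lower. That comparison rests on the BRL3ox libraries at 22 °C, whose replicate 2 stands apart.

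Of the enzymes that inactivate brassinosteroids, 7 were tested and UGT73C6 had no count in any library. Warmth raised 1 and lowered 0 in Col-0, raised 1 and lowered 1 in brl3-2, raised 1 and lowered 2 in pSUC2-BRL3, and raised 1 and lowered 0 in BRL3ox. The shares of all genes called in either direction were 45%, 49%, 39.1% and 37.6% in this order. Those higher were 21.7%, 25.8%, 19.6% and 18.3%, and those lower 23.3%, 23.3%, 19.5% and 19.3%. When 1 library was left out, 1 or 2 were called in Col-0, 2 or 3 in brl3-2, 1 or 2 in pSUC2-BRL3 and 0 to 2 in BRL3ox, with 0 in the fit without replicate 1 at 28 °C. With scaling by library size alone 3 rose and 0 fell in Col-0 and in BRL3ox. In brl3-2 2 rose and 1 fell, and in pSUC2-BRL3 1 rose and 0 fell. The median of all genes shifts upward under that scaling, and these counts are not set against all genes. BAS1, a cytochrome P450 that inactivates the hormone, fell by 1.79 in brl3-2 (adjusted p 0.00111) and by 1.02 in pSUC2-BRL3 (adjusted p 0.0268). The second call was lost with library size scaling (-0.42, adjusted p 0.302) and without replicate 2 at 22 °C or either library at 28 °C (adjusted p up to 0.172). SOB7, named CYP72C1 in the annotation and related to BAS1, rose by 1.06 in Col-0 (adjusted p 0.00363). UGT73C5, named DOGT1 in the annotation, a glycosyltransferase of the hormone, rose by 1.05 in pSUC2-BRL3 (adjusted p 0.00589) and by 0.83 in BRL3ox (0.0197). The calls were lost without replicate 1 of pSUC2-BRL3 at 22 °C (0.06), and without replicate 1 of BRL3ox at 22 °C or either of its libraries at 28 °C (up to 0.0757). The gene AT2G39980, which has no symbol in the annotation used, rose by 2.53 in brl3-2 (adjusted p 0.00176). None of the 7 had a warmth response called different from that of Col-0 in any line. Of all genes, 0.878%, 1.95% and 2.58% were called in those tests, in brl3-2, pSUC2-BRL3 and BRL3ox.

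Of the transcription factors listed as acting on these genes, 11 were tested, and TCP1 and CES had no count in any library. Warmth raised 3 and lowered 1 in Col-0, raised 4 and lowered 2 in brl3-2, raised 0 and lowered 4 in pSUC2-BRL3, and raised 1 and lowered 5 in BRL3ox. Of all genes, 45%, 49%, 39.1% and 37.6% were called in these genotypes, with 21.7%, 25.8%, 19.6% and 18.3% higher and 23.3%, 23.3%, 19.5% and 19.3% lower. With scaling by library size alone 6 rose and 0 fell both in Col-0 and in the mutant. In pSUC2-BRL3 2 rose and 0 fell, and in BRL3ox 4 rose and 0 fell. The same upward shift of all genes applies to these counts, which are not set against all genes. When 1 library was left out, 0 or 1 were called in Col-0, 1 to 3 in brl3-2, 0 to 4 in pSUC2-BRL3 (4 only without replicate 2 at 28 °C) and 1 to 7 in BRL3ox. In BRL3ox 2 rose and 3 fell without replicate 2 at 22 °C, 1 rose and 3 fell without replicate 1 at 28 °C, and 0 rose and 1 fell without replicate 2 at 28 °C. PIF5, named PIL6 in the annotation, a basic helix-loop-helix factor of the light and warmth response, fell by 0.63 in brl3-2 (adjusted p 0.0145), 0.80 in pSUC2-BRL3 (0.00569) and 1.02 in BRL3ox (0.00153), none of them called with library size scaling (-0.11, -0.22 and -0.34). The brl3-2 call was also lost without replicate 1 at 22 °C or either library at 28 °C (up to 0.0878), and the pSUC2-BRL3 call without replicate 1 at 28 °C (0.0572). BEE1, a factor that the hormone induces, rose by 1.59 in brl3-2 (adjusted p 0.00257). None of the 11 had a response in brl3-2 called different from that of Col-0 (0.878% of all genes called). BEH3, a relative of BZR1, rose by 0.76 in brl3-2 (adjusted p 0.0175; lost when replicate 1 at 22 °C or replicate 2 at 28 °C was left out, up to 0.156) and by 0.94 in BRL3ox (0.00954; lost without replicate 2 at 28 °C, 0.0778). BEH2, another relative of BZR1, fell by 0.97 in BRL3ox (adjusted p 0.0127), a call lost without replicate 2 at either temperature (up to 0.091, and by 0.37 at the least) and with library size scaling (-0.27). Its response in BRL3ox was lower than in Col-0 by -1.61 (adjusted p 0.0451), called in 2 of the 8 fits that left out 1 library, those without a BRL3ox library at 22 °C (-1.02 without its replicate 2), and lost with the replicate number as a block (-1.60, adjusted p 0.0651).

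The genes whose pattern over the 16 libraries lay nearest to each member were found from the root mean square difference of log2 CPM, each gene centred on its own mean. For DWF4 these were WOX12 (0.378) and WAT1 (0.382), and for BR6OX2 WOX12 (0.568) and CYP78A8 (0.569). For CPD they were GGH1 (0.196) and CYP721A1 (0.204), for ROT3 ABCG14 (0.231) and MSH1 (0.242), for CYP90D1 CYP78A8 (0.754) and SBT4.12 (0.813), and for BR6OX1 EDF3 (0.542) and CYP71A25 (0.593). For DET2 they were GSH2 (0.129) and SLK1 (0.133), for STE1 MOS4 (0.12) and PAS2 (0.122), and for DWF5 SYP71 (0.0644) and GRF9 (0.0708). For DWF1 they were SMO1-2 (0.118), a sterol methyl oxidase of the same route, and SYP71 (0.132). When the 8 group means replaced the libraries, 7 of the 20 nearest genes were the same. Among the 10 themselves, DWF1 and DWF5 lay nearest, at 0.162, followed by STE1 and DWF5 at 0.272, and CYP90D1 and DET2 lay farthest apart, at 1.57.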

How the data were processed

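The authors deposited 1 table of raw read counts per gene. Per the submitters' processing notes, the tools were FastQC 0.11.2, Trimmomatic 0.38, HISAT2 2.1, featureCounts 1.6.2 and edgeR 3.34.1, with the TAIR10 build; annotation and strand setting are not stated there. Per the labels' protocols, libraries came from a stranded mRNA kit. Of 33297 lines, 1 carries no gene name, holds at most 0.00463% of a library and was left out.

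The tests used edgeR 4.0.16 in R 4.3.3 (quasi-likelihood F-test, two-sided, TMM scaling, filter of 10 counts and a total of 15) in 1 fit of 16 libraries with 8 residual degrees of freedom, checked on simulated counts. SE is the log2 change divided by the root of F. Alternatives were DESeq2 1.42.0, its size factors, no filter, a replicate block, libraries left out and, chosen after seeing the data, library size scaling. Figures used matplotlib 3.10.9. The members and lists were chosen with earlier results of these data known. All 10 members are named. List genes are named where called in a warmth comparison, at most 4 a list, by smallest adjusted p. For each member the 2 genes with a symbol and the nearest profile are named.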

Additional observations from a re-analysis of the deposited data

Results flagged for a closer look

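The warmth response of BRL3ox was tested against that of Col-0 for all 10 genes, and the difference passed the threshold for 2 of them. Of all genes, 2.58% were called, 1.24% higher and 1.34% lower. The 2 were DWF4 at -1.71 (log2, SE 0.34, adjusted p 0.0301) and DWF1 at -1.03 (SE 0.24, adjusted p 0.0487). For DWF4, the Col-0 libraries moved from 10.4 and 11.8 CPM to 29.8 and 28.4, and the BRL3ox libraries from 5.91 and 11.8 CPM to 6.96 and 7.16. For DWF1, the Col-0 libraries moved from 331 and 377 CPM to 441 and 416, and the BRL3ox libraries from 446 and 620 CPM to 343 and 289. Both genes stood higher in replicate 2 of BRL3ox at 22 °C than in its partner. Without that replicate the differences were -1.14 for DWF4 and -0.78 for DWF1. Over the 8 fits that left out 1 library they ranged from -2.14 to -1.14 and from -1.25 to -0.78. Both calls were lost in most of these fits.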

How the results depend on the processing

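Deviations from the group means of same-numbered libraries correlated between -0.294 and 0.267 over all pairs of groups. For the compared pairs of genotypes they correlated between -0.153 and -0.0393 at 22 °C and between 0.0512 and 0.213 at 28 °C. Whether replicate numbers pair the libraries of some groups cannot be told from these values. With the replicate number as a block, the members called were 0 for brl3-2 against Col-0 at 22 °C and 1 for the response of BRL3ox minus that of Col-0, and the STE1 warmth call in Col-0 was lost. Leaving out each library in turn gave 3 to 5 called for warmth in Col-0, 4 to 4 in brl3-2, 2 to 3 in pSUC2-BRL3 and 1 to 8 in BRL3ox. Against Col-0 it gave 0 to 0 for brl3-2, 0 to 1 for pSUC2-BRL3 and 2 to 7 for BRL3ox at 22 °C, and 0 to 1, 0 to 1 and 1 to 3 at 28 °C. It gave 0 to 5 for the response of BRL3ox minus that of Col-0. DESeq2 called 5 for warmth in BRL3ox (as did its size factors in edgeR), 2 for pSUC2-BRL3 against Col-0 at 28 °C, and 1 for pSUC2-BRL3 against brl3-2 at each temperature. With 2 libraries left out (BRL3ox at 22 °C, replicate 2; pSUC2-BRL3 at 28 °C, replicate 1), the counts were 7 for warmth in pSUC2-BRL3, 2, 6 and 4 for brl3-2, pSUC2-BRL3 and BRL3ox against Col-0 at 22 °C, 2, 2 and 8 at 28 °C, 2 for pSUC2-BRL3 against brl3-2 at 22 °C and 3 for the response of pSUC2-BRL3 minus that of Col-0. With replicate 2 of pSUC2-BRL3 at 28 °C left out instead, they were 6 for warmth in pSUC2-BRL3, 2 and 6 for brl3-2 and pSUC2-BRL3 against Col-0 at 22 °C, 2, 4 and 8 at 28 °C, 2 and 1 for pSUC2-BRL3 against brl3-2 at 22 °C and 28 °C, and 3 for the response of pSUC2-BRL3. Library size scaling gave 8 for warmth in brl3-2, 10 in pSUC2-BRL3, 0 for brl3-2 against Col-0 at 22 °C and 1 for the response of BRL3ox. Under it the median warmth change of all genes was 0.56 in brl3-2 and 0.61 in pSUC2-BRL3. The shares of all genes called in the fits of this paragraph are not given.

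The direction turned in these cases, and the cause was not tested. With library size scaling the warmth changes were 0.21, 0.27 and 0.30 for STE1 in Col-0, brl3-2 and BRL3ox, 0.10 for SMT2 in pSUC2-BRL3, and in BRL3ox 0.19 for CPD, 0.37 for DWF4, 0.66 for BR6OX2 and 0.25 for DWF5. In BRL3ox with the 2 libraries left out, warmth changes were 0.66 for CPD, 0.26 for DWF4, 0.11 for BR6OX2 and -0.011 for BR6OX1; with the other pair they were 0.67, 0.26, 0.11 and -0.0079. Leaving out 1 library at a time, warmth changes ranged from -0.020 to 0.45 for CYP90D1 in Col-0, from -0.056 to 0.10 for CYP90D1 in brl3-2, and in BRL3ox from -1.18 to 0.66 for CPD, -0.74 to 0.26 for DWF4, -0.13 to 0.11 for BR6OX2 and -0.012 to 1.40 for BR6OX1. DWF4 in BRL3ox against Col-0 at 22 °C ranged from -0.90 to 0.093, and BR6OX2 in pSUC2-BRL3 against brl3-2 at 28 °C from -0.59 to 0.14. Of the 96 single-gene results, those that kept direction and call were 94 under DESeq2 size factors, 93 without a low-count filter, 91 with the block, 86 under DESeq2, 70 with either 2 libraries left out and 67 under library size scaling. Over the fits that left out 1 library, 279 kept both, 122 lost the call, 9 gained one and 10 turned. CYP90D1 and BR6OX1, at 3 to 121 and 8 to 234 reads, are limited by depth.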
